A study of Homo sapiens with 4 samples.

Results

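The zinc finger genes of chromosome 19 are the protein-coding genes on that chromosome whose symbols consist of ZNF and a number, 6 of them with a final letter. There were 246 such genes among the 20161 protein-coding genes of GENCODE release 44 lifted to hg19. The rule uses only symbol and position and no methylation value, but the group was picked with earlier results of these data known. The promoter of each gene reached from 1000 bp before to 1000 bp after the start of its canonical transcript. In total, 235 genes lay in 11 clusters, in which neighbouring start sites were at most 500 kb apart, and 11 genes lay alone. The clusters were numbered along the chromosome.

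HEK293 cells, a human embryonic kidney line, were left untreated or received dCas9-SunTag (dCS), an sgRNA to the CpG island of ISG15 and Ab-3A3L, an antibody fragment joined to the catalytic domain of DNMT3A and to DNMT3L. The catalytic domain was the wild type (WT), K844E or R887E form, and transfected cells were collected by FACS after 3 days, so that each of the 4 conditions had 1 library. In MBD-seq, methylated fragments of the sonicated DNA were captured with MBD2 and sequenced. The values below come from the deposited list of 12864 new peaks of WT cells compared to untreated cells, and the libraries themselves and those of K844E and R887E were not analysed here.

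Most zinc finger genes of chromosome 19 are known to encode KRAB zinc finger proteins. The tandem C2H2 fingers bind DNA, often within transposable elements, and the KRAB domain recruits TRIM28, through which SETDB1 and HP1 proteins deposit and read histone H3 lysine 9 methylation. The genes arose by repeated tandem duplication, which is why relatives lie side by side and share sequence. In these data, the coding sequence of 169 of the 246 genes matched a single fixed pattern for the KRAB A box, which can miss divergent boxes. At least 1 C2H2 finger was found in each of the 245 genes whose reading frame was intact in hg19. DNMT3A sets DNA methylation at CpG sites and DNMT3L stimulates it.

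A new peak overlapped the promoter of 55 of the 246 genes, or 22.4% (95% exact binomial interval 17.3 to 28.1), while 191 had none. Over all coding genes the share was 41.6% (8386 of 20161). The 262 genes of the same naming rule on other chromosomes had a new peak at 110 promoters, or 42.0% (35.9 to 48.2). The other 1234 coding genes of chromosome 19 had one at 294, or 23.8% (21.5 to 26.3). The zinc finger genes of chromosome 19 were thus below their namesakes elsewhere and close to the other genes of the chromosome. Of these other genes, the 111 inside the clusters had a new peak at 18, or 16.2% (9.9 to 24.4). The 1123 outside had one at 276, or 24.6% (22.1 to 27.2). Some peaks inside the clusters are shared with a zinc finger gene. With 1 library per condition no test could be made, and the intervals cover counting error only. A promoter that was already methylated in untreated cells could not gain a new peak, and this cannot be told apart here from a promoter that stayed unmethylated.

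Cluster 3 (chr19:11616654-12721734, hg19, from the start of ZNF653 to that of ZNF791) stood apart from the other clusters with new peaks at 15 of its 25 genes, and cluster 4 (chr19:19779648-24269989, from ZNF101 to ZNF254) had them at 2 of 37. Stretches of 121 bp from intron 1 of 8 genes of these clusters show what the sequence looks like in both clusters. They are taken from hg19, read 5′ to 3′ on the strand of the gene, with each CpG in capitals. For 4 genes of cluster 3 with a new peak, the stretch is centred on the summit, the base with the highest enrichment. They are ZNF823 (chr19:11849362-11849482, minus strand), ZNF441 (chr19:11878147-11878267, plus), ZNF44 (chr19:12405303-12405423, minus) and ZNF709 (chr19:12595255-12595375, minus).
ZNF823: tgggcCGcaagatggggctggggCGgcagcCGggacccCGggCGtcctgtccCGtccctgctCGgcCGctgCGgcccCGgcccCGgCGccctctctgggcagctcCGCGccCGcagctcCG
ZNF441: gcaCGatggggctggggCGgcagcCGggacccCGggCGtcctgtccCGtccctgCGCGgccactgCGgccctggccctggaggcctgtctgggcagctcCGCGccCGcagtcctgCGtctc
ZNF44: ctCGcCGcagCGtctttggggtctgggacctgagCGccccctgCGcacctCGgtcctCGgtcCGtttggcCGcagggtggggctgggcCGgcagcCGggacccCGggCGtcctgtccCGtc
ZNF709: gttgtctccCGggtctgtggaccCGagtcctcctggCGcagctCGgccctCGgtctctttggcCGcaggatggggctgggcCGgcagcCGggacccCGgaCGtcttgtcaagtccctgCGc

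For genes without a new peak, the stretch is centred 323 bp downstream of the start site, the median summit distance in cluster 3. They are ZNF440 (chr19:11925351-11925471, plus) and ZNF564 (chr19:12661913-12662033, minus) of cluster 3, and ZNF91 (chr19:23577890-23578010, minus) and ZNF93 (chr19:20012018-20012138, plus) of cluster 4.
ZNF440: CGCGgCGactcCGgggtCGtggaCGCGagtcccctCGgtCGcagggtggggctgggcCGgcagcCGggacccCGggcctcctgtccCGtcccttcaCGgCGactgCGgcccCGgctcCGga
ZNF564: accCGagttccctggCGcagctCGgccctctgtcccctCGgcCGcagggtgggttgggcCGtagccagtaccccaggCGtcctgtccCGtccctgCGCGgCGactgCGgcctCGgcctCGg
ZNF91: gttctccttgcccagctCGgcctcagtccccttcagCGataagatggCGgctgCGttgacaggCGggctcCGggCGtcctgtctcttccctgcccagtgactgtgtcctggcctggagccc
ZNF93: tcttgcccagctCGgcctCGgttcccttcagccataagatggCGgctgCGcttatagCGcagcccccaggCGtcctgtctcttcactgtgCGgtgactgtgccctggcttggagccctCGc

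The stretches of cluster 3 held 16 CpGs at ZNF823, 13 at ZNF441, 14 at ZNF44 and 11 at ZNF709. ZNF440 and ZNF564, which lacked a peak, held 18 and 14 CpGs, as many as or more than most of the 4 with a peak. ZNF91 and ZNF93 of cluster 4 held 7 and 8. Among the 6 pairs of cluster 3 genes with a peak, the longest run of identical bases measured 18 to 51, the longest between ZNF823 and ZNF441. It measured 16 to 38 over the 8 pairs of a gene with and a gene without a peak, the longest between ZNF44 and ZNF440. ZNF440 and ZNF564 shared 15 bases, ZNF91 and ZNF93 shared 18, and the 12 pairs across the clusters 8 to 16. Pairs of cluster 3 with and without a peak thus overlapped in the length of the shared run. This length also depends on where each stretch was cut, and the genes shown are examples only. It therefore does not compare genes with and without a peak in general. Over all genes the 121 bp at the summits held a median of 13 CpGs (quartiles 11.5 and 16, n = 55). At 323 bp from the start, the 191 genes without a new peak held a median of 7 (quartiles 5 and 9). These medians cannot be compared directly, since a summit is placed at the most enriched base and the other windows at a fixed distance. In cluster 3 the medians were 14 for the 15 summits and 14 for the 10 genes without a peak. The fixed distance is the median of these same summits, each of which has its own centre, so the same limit holds there. The 35 genes of cluster 4 without a peak had a median of 8.

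CpG number varied widely among the promoters, from 11 at ZNF676 and ZNF404 to 186 at ZNF555. The median was 81 CpGs, with quartiles of 68 and 97.8, compared to 103 for the zinc finger genes elsewhere, 94 for the other genes of chromosome 19 and 96 over all coding genes. None of the 14 promoters with fewer than 50 CpGs had a new peak. A count of 0 allows a share of up to 21.4%, and the share over all coding genes in this class was 0.944%. With 50 to 99 CpGs the share was 19.7% (34 of 173, interval 14.0 to 26.4). It was 34.6% with 100 or more but fewer than 150 CpGs (18 of 52, 22.0 to 49.1) and 42.9% with 150 or more (3 of 7, 9.90 to 81.6). The share thus rose over the classes, but the intervals of adjacent classes overlapped. The median promoter with a new peak held 94 CpGs and the median promoter without one held 77.

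At like CpG number the zinc finger genes of chromosome 19 remained below other coding genes of the genome, and were near those of their own chromosome in the middle classes. In the class of at least 100 and fewer than 150 CpGs, their 34.6% stood beside 52.9% (54 of 102, 42.8 to 62.9) for the zinc finger genes elsewhere, 35.1% (130 of 370, 30.3 to 40.2) for the other genes of chromosome 19 and 65.6% over all coding genes. With 50 to 99 CpGs, the values were 25.8% for the zinc finger genes elsewhere, 17.0% for the other genes of chromosome 19 and 28.9% over all. With 150 or more CpGs the 3 of 7 promoters (42.9%) stood beside 77.5% for the zinc finger genes elsewhere, 55.6% for the other genes of chromosome 19 and 78.8% over all. Had each promoter had the share of the coding genes outside the group in its CpG class, 90.5 of the 246 promoters or 36.8% would have had a new peak, a difference of -14.4 percentage points. Drawn from the other genes of chromosome 19 only, a comparison chosen after seeing the data, the same calculation gave 51.6 promoters or 21.0% and a difference of 1.40 points. Without cluster 3, the cluster with the highest share, 40 of 221 promoters or 18.1% had a new peak, beside 21.1% from the other genes of chromosome 19, and the difference turned to -2.98 points. Low shares were thus found for chromosome 19 as a whole. In this class, the 21 other autosomes had shares between 52.7% on chromosome 21 and 82.2% on chromosome 13, with a median of 69.6%. Why promoters of chromosome 19 gave fewer new peaks was not tested.

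**Figure D1:**
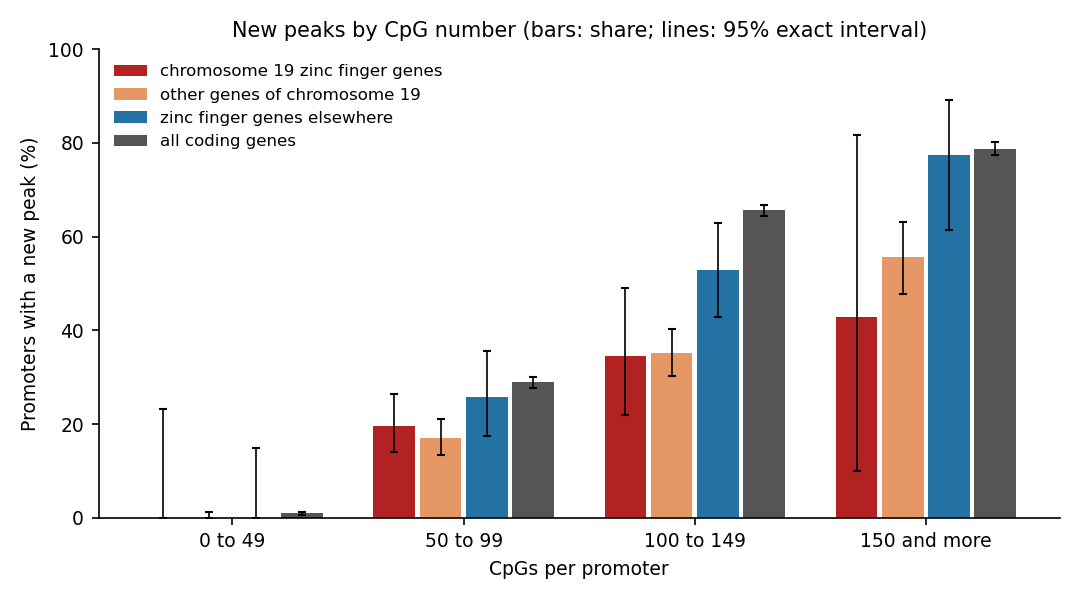
Share of promoters with a new peak (y axis, percent) in 4 classes of CpG number of the promoter (x axis) for the zinc finger genes of chromosome 19, the other genes of chromosome 19, zinc finger genes elsewhere and all coding genes; lines are 95% exact binomial intervals. In the class from 100 CpGs up to 150 both groups of chromosome 19 stand near 35% (34.6% and 35.1%), below the 52.9% of zinc finger genes elsewhere and the 65.6% of all coding genes.

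Promoters can also be classed by the most CpG-rich 500 bp windows they hold. High-CpG promoters (HCP) hold a window with an observed/expected CpG ratio over 0.75 and a GC content over 55%. Of the 246 promoters, 187 were HCP, of which 53 or 28.3% (22.0 to 35.4) had a new peak. Intermediate promoters (ICP) numbered 55, of which 2 had one, and the 4 low-CpG promoters (LCP) had none. The share among HCP was 49.8% for the zinc finger genes elsewhere, 36.7% (33.2 to 40.3) for the other genes of chromosome 19 and 60.2% over all coding genes. By this classing the interval of the zinc finger genes of chromosome 19 overlapped that of the other genes of the chromosome, but only with cluster 3 included. Outside cluster 3, 39 of 165 HCP had a new peak, or 23.6% (17.4 to 30.9), which lies below the interval of the other genes. These HCP sets differed in CpG number, however, with medians of 87 outside cluster 3 and 119 for the other genes of chromosome 19. Among promoters with 70 to 99 CpGs, the shares were 19.8% and 23.2%.

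The CpGs directly after the start site separated promoters with and without a peak more than those before it. The 1000 bp upstream held a median of 36 CpGs at promoters with a new peak and 33 without, and the 1000 bp downstream 55 and 43. In the first 500 bp after the start the medians were 43 and 31. A new peak was found at 38 of 78 genes with 40 or more CpGs in these 500 bp, or 48.7% (37.2 to 60.3). It was found at 12 of 73 genes with 30 to 39 CpGs, or 16.4% (8.79 to 27.0), and at 5 of 81 genes with 20 to 29, or 6.17% (2.03 to 13.8). For the other genes of chromosome 19 these shares were 45.9%, 27.2% and 13.3%, and over all coding genes 72.1%, 42.8% and 23%. The classes of first 500 bp were chosen after seeing the data.

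**Figure D2:**
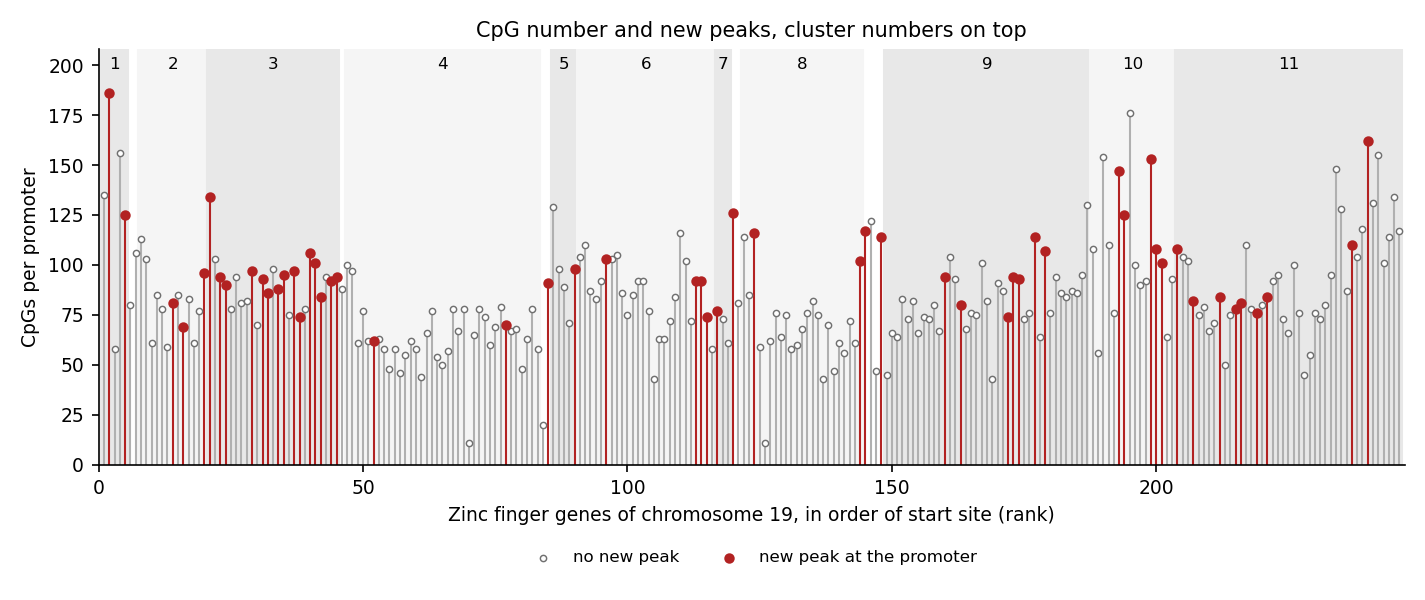
CpG number of the promoter (y axis, CpGs per promoter) of the 246 genes in the order of their start sites along the chromosome (x axis, rank), with filled points for a new peak, open points for none, and the 11 clusters shaded and numbered on top. Filled points crowd in cluster 3 (15 of 25 genes), and cluster 4, where CpG numbers are low (median 63), has 2 in 37.

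The clusters differed in share. Cluster 3 had the highest with 60% (38.7 to 78.9), and the 221 genes outside it had a new peak at 40 promoters, or 18.1% (13.3 to 23.8). These intervals do not overlap, but cluster 3 was singled out as the highest of 11. Clusters with at least 10 genes followed with 31.2% (5 of 16, 11.0 to 58.7) for cluster 10, 23.1% (3 of 13, 5.04 to 53.8) for cluster 2, 20.9% (9 of 43, 10 to 36.0) for cluster 11, 17.9% (7 of 39, 7.54 to 33.5) for cluster 9, 15.4% (4 of 26, 4.36 to 34.9) for cluster 6, 8.70% (2 of 23, 1.07 to 28.0) for cluster 8 and 5.41% (2 of 37, 0.661 to 18.2) for cluster 4. Neighbours in this order overlapped in their intervals. The interval of cluster 3 also overlapped that of cluster 2 but not those of the clusters with 20.9% or less. The small clusters had new peaks at 2 of 5 genes (cluster 1), 1 of 5 (cluster 5) and 1 of 3 (cluster 7), and 4 of the 11 lone genes had one. Within the clusters there were 224 pairs of neighbouring genes. Both genes of a pair had a new peak in 15, neither in 145 and 1 of them in 64. The pairs with a peak at both genes include ZNF490 with ZNF791 and ZNF571 with ZNF540, which each lie under a single shared peak. No expected number of such pairs was calculated.

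**Figure D3:**
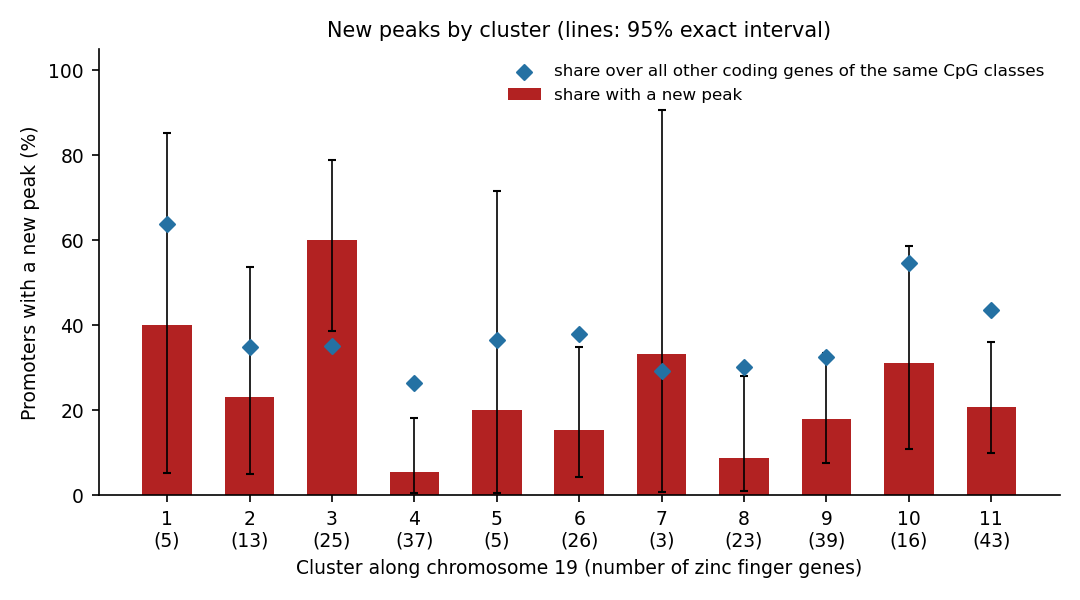
Share of genes with a new peak at the promoter (y axis, percent) in each of the 11 clusters (x axis, number of genes in brackets); lines are 95% exact binomial intervals and diamonds the share over all other coding genes in the same CpG classes. The bar of cluster 3 (60%) lies above its diamond (35.1%), and that of cluster 4 (5.41%) below its diamond (26.4%).

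In cluster 3, the peaks had folds from 4.57 to 11.8, where the fold is the ratio of fragments at the summit to the background in the deposited list. ZNF823 had the highest of all 246 genes with 11.8, followed within the cluster by ZNF563 with 10.6, ZNF799 with 10 and ZNF441 with 9.93. ZNF20 (8.69), ZNF443 (8.07), ZNF44 (7.87), ZNF709 (7.43), ZNF878 (7.30), ZNF700 (7.26), ZNF433 (6.98) and ZNF653 (6.80) lay in the middle. ZNF490 and ZNF791, a head-to-head pair whose promoters share 1 peak, had 5.94, and ZNF625 had 4.57. The 10 genes without a new peak were ZNF627, ZNF491, ZNF440, ZNF439, ZNF69, ZNF763, ZNF844, ZNF136, ZNF442 and ZNF564. Of these, ZNF627 held the most CpGs with 103. Only ZNF653 (134) and ZNF799 (106) among the genes of this cluster with a peak held more.

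At like CpG number cluster 3 was above the other zinc finger genes of the chromosome. The range used here, 70 to 99 CpGs, was not a planned class, and cluster 3 was singled out on these same peaks. Within this range, 12 of 21 genes of cluster 3 had a new peak, or 57.1% (34.0 to 78.2). The other genes of the group with this CpG number had one at 20 of 101 promoters, or 19.8% (12.5 to 28.9), and the other genes of chromosome 19 at 23.2%. Over all coding genes with this CpG number the share was 35.5%, within the interval of cluster 3. Among HCP, cluster 3 had 14 of 22 or 63.6% (40.7 to 82.8), beside the 60.2% of all coding genes. HCP are not matched for CpG number, with medians of 93.5 CpGs in cluster 3 and 120 over all coding genes. With 70 to 99 CpGs, clusters 6, 9 and 11 had 3 of 15, 5 of 26 and 6 of 21, while cluster 8 had none of 8, which allows up to 37.5%. In the first 500 bp after the start, cluster 3 held a median of 43 CpGs at the 15 genes with a new peak (range 23 to 64). The 10 genes without one also had a median of 43 (range 35 to 48). Over the whole promoter these 2 sets differed, with medians of 94 and 81.5 CpGs and observed/expected ratios of 0.619 and 0.558. A further 13 coding genes lay inside cluster 3, of which 6 had a new peak, but 5 of these shared the peak of a zinc finger gene.

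Cluster 4 spans 4.49 Mb next to the centromere, with a median of 63 CpGs per promoter and 25 in the first 500 bp after the start. Its peaks had low folds. ZNF682 had a fold of 5.22 with 12 fragments at the summit over a background of 1.49. Its 62 CpGs were the fewest of any of the 55 promoters with a peak. ZNF730 had 5.31 with 8 fragments over a background of 0.694, and 70 CpGs. Of its 37 promoters 4 were HCP, of which 1 had a new peak, and of the other 33 also 1. ZNF101 with 100 CpGs and ZNF14 with 97 held the most CpGs of the cluster, and neither had a peak. ZNF91 (68 CpGs) and ZNF93 (62), which silence SVA and LINE-1 retrotransposons, had none. Counting all new peaks from the first to the last gene, cluster 4 had 1.11 per Mb, compared to 16.3 in cluster 3, 5.69 over all clusters and 10.6 over chromosome 19. Without the peaks at zinc finger promoters, cluster 4 had 3 peaks or 0.668 per Mb, cluster 3 had 4 or 3.6 per Mb, and all clusters together 2.22 per Mb.

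Relatives were more alike in cluster 4 than in cluster 3. Aligned over the 500 bp after the start, the pairs within cluster 3 had a median identity of 60.2% (300 pairs, at most 85.6% between ZNF763 and ZNF700), those within cluster 4 had 74.3% (666 pairs, at most 90.7% between ZNF728 and ZNF208), and pairs across the clusters 56.6% (925 pairs), close to the value within cluster 3. ZNF700 had a new peak with a fold of 7.26, and its nearest relative ZNF763 had none, with 97 and 70 CpGs. Reads from repeated sequence can be placed at the wrong copy. A window of 150 bp with a second placement in the genome at 95% identity or more was found in 58 of the 246 promoters, of which 12 or 20.7% (11.2 to 33.4) had a new peak, compared to 43 of 188 or 22.9% (17.1 to 29.5) for the others. Such windows were found at 8 of 25 promoters of cluster 3 and 9 of 37 of cluster 4.

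In the other clusters, ZNF749 of cluster 11 had the highest fold with 10.4, and 17 fragments. The other genes of cluster 11 with a new peak were ZNF264 (8.22), ZNF773 (8.07), ZNF549 (7.54), ZNF211 (7.45), ZNF530 (6.83), ZNF274 (6.09), ZNF497 (4.11) and ZNF543 (3.99). ZNF274, which binds the 3′ ends of zinc finger genes and recruits SETDB1 there, had its summit 468 bp downstream of the start with 10 fragments. In cluster 2, ZNF846 had 9.93, ZNF266 8.07 and ZNF426 6.13, the last with 69 CpGs.

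In cluster 6, ZNF607 had a fold of 8.69 with 74 CpGs, and ZNF382, described as a tumour suppressor silenced by methylation in cancers, had 7.14 with 21 fragments. ZNF571 and ZNF540, the second head-to-head pair under 1 peak, had 4.97. In cluster 9 the genes with a peak were ZNF160 (8.21), ZNF766 (7.45), ZNF468 (7.43), ZNF320 (6.33), ZNF880 (5.59), ZNF28 (4.50) and ZNF347 (4.07). ZNF331, an imprinted gene, had none despite its 130 CpGs, the most in that cluster, and ZNF808, a repressor of retroviral elements needed for the pancreas, had none either with 101 CpGs. An imprinted promoter can be methylated on 1 allele before treatment, and the untreated library was not analysed here.

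In cluster 10, ZNF471 had 8.69, ZNF470 8.07, ZNF581 6.85, ZNF667 6.49 and ZNF580 5.26. The remaining peaks lay at ZNF555 (5.73) and ZNF77 (5.66) of cluster 1, ZNF792 (6.21) of cluster 5, ZNF546 (5.59) of cluster 7, ZNF428 (7.33) and ZNF180 (4.97) of cluster 8, and at the lone genes ZNF473 (6.89), ZNF507 (6.83), ZNF296 (6.67) and ZNF574 (3.8).

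Many CpGs did not go with a peak at every gene. Among the 191 genes without one, ZNF787 of cluster 10 held 176 CpGs, ZNF57 of cluster 1 held 156, ZNF584 of cluster 11 held 155, ZNF524 of cluster 10 held 154 and ZNF606 of cluster 11 held 148. ZNF555, with the most CpGs of all, had a fold of 5.73, from 16 fragments at the summit over a background of 1.97. In the clusters not named so far, the genes without a peak and with the most CpGs were ZNF414 (113) in cluster 2, ZNF302 (129) in cluster 5, ZNF569 (116) in cluster 6, ZNF780B (73) in cluster 7 and ZNF575 (114) in cluster 8. ZNF417 and ZNF587, related genes of cluster 11 that bind endogenous retroviruses, had 73 and 55 CpGs and no peak. Below ZNF682, the promoter with a peak and the fewest CpGs (62), lay 39 promoters.

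The peaks at these promoters were lower and narrower than those at coding promoters in general. The median fold was 6.85 (quartiles 5.62 and 8.07, range 3.8 to 11.8, n = 55), compared to 8.26 over all coding genes with a peak, 7.79 for the zinc finger genes elsewhere and 6.77 for the other genes of chromosome 19. At 19 of the 55 genes the fold reached 7.45, the median of the whole list, and 7 of these 19 belonged to cluster 3 and none to cluster 4. A fold of at least 10 was reached at 4 genes, ZNF823, ZNF563, ZNF749 and ZNF799, while 25.2% of the list reached it. Fold and p-value together give the whole number of fragments under the summit, which had a median of 13 (range 6 to 24), compared to 17 over all coding genes. The background rate at these summits had a median of 0.702, near the 0.720 of all coding genes and lower than the 1.46 of the other genes of chromosome 19. Background thus differed between the zinc finger genes and the other genes of the chromosome although their folds were alike. The median width was 392 bp (range 253 to 797, the widest at ZNF823), compared to 594 bp over all coding genes and 456 bp for the other genes of chromosome 19. With 50 to 99 CpGs the widths lay closer together. Their medians were 386 bp for the zinc finger genes of chromosome 19, 400 bp for its other genes and 435 bp over all coding genes. At the 55 genes the −log10 q ranged from 2.34 to 17.5 with a median of 8.38.

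Most summits lay downstream of the start site. This was so for 45 of 55 genes or 81.8%, compared to 61.8% for the zinc finger genes elsewhere, 71.8% for the other genes of chromosome 19 and 70.5% over all coding genes. The median distance was 247 bp (quartiles 108 and 337), and 40 summits lay 100 to 500 bp downstream. In cluster 3, 11 of 15 summits lay 300 to 450 bp downstream, and 8 of 40 elsewhere. The summit fell in intron 1 at 30 genes, in exon 1 at 15 and outside the transcript at 10. The start site itself was covered by the highest peak of the promoter at 22 of 55 genes or 40%, compared to 61.3% over all coding genes.

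**Figure D4:**
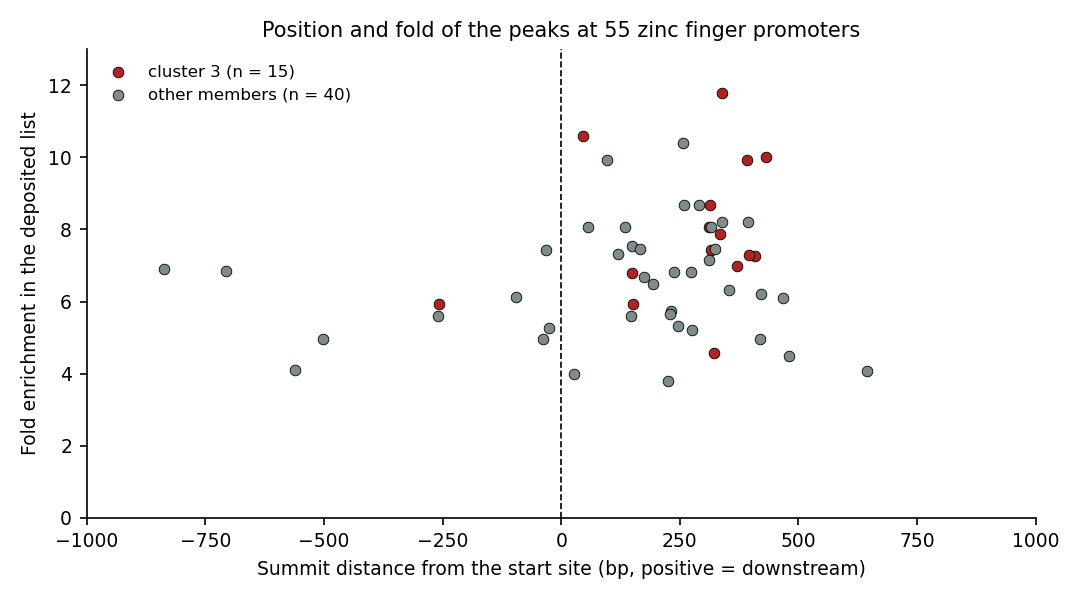
Fold enrichment (y axis) against the summit's distance to the start site (x axis, bp, positive downstream) for the 55 genes with a new peak, with cluster 3 in red and all others in grey. Most points lie right of 0 (45 of 55), and 11 of the 15 points of cluster 3 lie between 300 and 450 bp.

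Cover was also counted over all peaks of a promoter, which gives slightly higher values where a promoter has several. Of the 55 promoters with a new peak, 9.09% were covered 250 bp upstream of the start, 40% at the start, 76.4% at 250 bp downstream and 38.2% at 500 bp downstream. For the other coding genes with a peak these values were 35.3%, 64.5%, 71.0% and 46.9%.

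**Figure D5:**
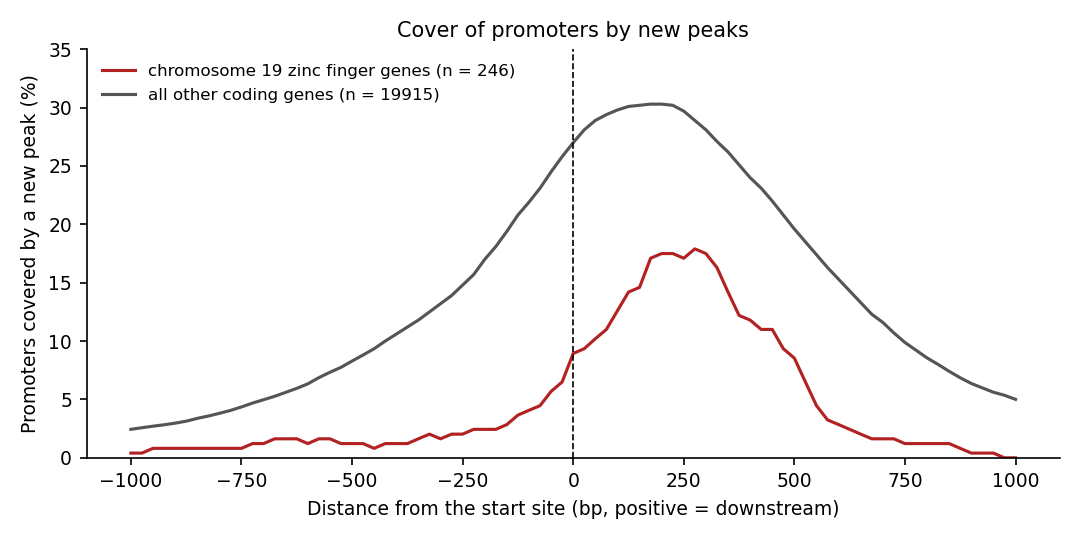
Share of promoters covered by a new peak (y axis, percent of all promoters of the group) at each distance from the start site (x axis, bp, positive downstream) for the 246 zinc finger genes of chromosome 19 and the 19915 other coding genes. The curve of the zinc finger genes is lower and is shifted downstream, with little cover before the start.

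The measured features of the encoded proteins had close values at genes with and without a new peak. A match to the KRAB A box pattern in the coding sequence was found at 38 of 55 genes with a peak (69.1%) and at 131 of 191 without (68.6%). Matches varied by cluster, with 2 of 23 genes in cluster 8 and 31 of 37 in cluster 4. A gene without a match may still encode a KRAB domain that differs from the pattern. The median number of C2H2 fingers was 13 with and 12 without, counted at 245 genes. Of the 13 genes with a coding neighbour starting head-to-head within 1000 bp, 5 had a new peak (38.5%, 13.9 to 68.4), and of the other 233 genes 50 (21.5%, 16.4 to 27.3). These intervals overlap, and 4 of the 5 genes lie under the 2 shared peaks named above.

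Motifs of common promoter factors were searched on both strands from 250 bp before to 50 bp after the start. The SP1 motif GGGCGG was found at 67.1% of the 246 promoters and 61.0% of all coding promoters. It occurred at 46 of 55 promoters with a new peak (83.6%), 119 of 191 without (62.3%), 24 of 25 in cluster 3 and 25 of 37 in cluster 4 (67.6%). The SP1 motif itself holds a CpG, and its matches were not compared at like CpG number. The ETS motif CCGGAAGT occurred at 19.5% of the promoters, compared to 6.09% of all coding promoters, with 16.4% among those with a peak and 20.4% among those without. It was found at 1 of 25 promoters of cluster 3 and 0 of 37 of cluster 4. The NRF1 motif GCGCATGC (4.47% against 4.26% over all) and the cAMP response element TGACGTCA (3.66% against 2.69%) were rare in this window. So was the YY1 motif AAGATGGCG (3.66% against 2.82%), found there at 0 of 37 promoters of cluster 4. The YY1 motif does occur further downstream, in the printed intron 1 stretches of ZNF91 and ZNF93 of that cluster. Motifs beyond the window were not counted. These matches describe the sequence and do not show binding.

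A new peak inside the gene but outside the promoter was found at 3 genes, ZNF57, ZNF536 and ZNF580. The one in ZNF580 was in its largest coding exon and is the same peak that overlaps the promoter of ZNF581. Among the 191 genes without a promoter peak, the nearest new peak was at a median distance of 85194 bp, and 1 lay within 2000 bp of the start. This was ZNF576 (1284 bp), followed by ZNF536 (2375 bp) and ZNF57 (2843 bp). On the inner side of the limit of 1000 bp, the nearest edges lay at 610 bp for ZNF473, 535 bp for ZNF581 and 487 bp for ZNF347. Of the 82 new peaks within the 11 clusters, 50 overlapped promoters of the zinc finger genes, 12 only promoters of other coding genes and 20 neither.

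A chosen list of KRAB co-repressors and other silencing factors had new peaks at 7 of 13 promoters, or 53.8% (25.1 to 80.8). This interval holds the 41.6% of all coding genes. TRIM28, the co-repressor that KRAB domains bind, had a fold of 5.60 with 189 CpGs. Its summit lay 918 bp downstream of the start, near the edge of the promoter. ATF7IP, the partner of SETDB1, had 7.96. Of the HP1 genes, CBX1 had 14.1 and CBX3 5.59, and CBX5 had no peak. MPHOSPH8, a subunit of the HUSH silencing complex, had 9.31 and MORC2, which works with that complex, 4.57, and the HUSH subunits TASOR and PPHLN1 had no peak. UHRF1, which guides maintenance methylation, had 4.10. SETDB1, ATRX and DAXX had none. Of 18 genes of chromosome 19 with other zinc finger symbols (ZFP, ZSCAN, ZIM, ZIK and ZBTB), 6 had a new peak (33.3%, 13.3 to 59.0, beside the same 41.6%), namely ZSCAN22 (11.8), ZFP30 (8.53), ZFP28 (8.26), ZBTB7A (4.26), ZBTB45 (3.84) and ZFP14 (2.55).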

How the data were processed

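According to the methods, the authors mapped reads to hg19 with Bowtie2 on Galaxy. MACS2 is among the tools of the submitters' processing notes, its role and settings are not given in the sources used here, and the deposited list has the layout of its peak file. The deposited score, −log10 q times 10, was left aside. The fold given by the authors is a ratio, summit fragments over a background. The deposited −log10 p-value and −log10 q-value come from the peak caller, and a further deposited column places the summit within the peak. The depth of the library was not given by the list. The fragments k and the background rate were recovered from fold = (k + 1)/(rate + 1) and the Poisson probability of more than k, within 0.000403 of the listed −log10 p.

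Starts of canonical transcripts came from GENCODE 44 on GRCh37 (3 of the 246 genes had another transcript). An overlap of 1 bp counted. CpGs were counted over the whole promoter, in classes of 50. Repeated windows of 150 bp, taken every 50 bp, were placed with minimap2 2.31. Shares have 95% exact binomial intervals, and a count of 0 allows 3 counts. No test was made, since there is 1 library per condition. The named genes are the 5 with the highest fold, the 5 with a peak and the fewest CpGs, the 5 without a peak and the most CpGs, the extremes of each cluster, head-to-head pairs under 1 peak and genes with textbook roles. All other genes with a peak, and the genes of cluster 3, are named for completeness. Members and lists were chosen with earlier results of these data known. Alternatives covered the window, the threshold, the start sites, the gap between clusters, the symbols, the CpG classes and repeated sequence. Steps were checked on simulated data. Tools were samtools 1.23.1, pysam 0.24.0, Biopython 1.88, scipy 1.17.1, matplotlib 3.10.9, pandas 2.3.3 and numpy 2.4.6 under Python 3.11.15.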

Additional observations from a re-analysis of the deposited data

How the results depend on the processing

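Of 101 planned recalculations, 79 gave a value inside the 95% interval of the main value, or within a fixed factor of it for the count of genes. The other 22 fell outside, 14 of them for the main values and 8 for single clusters. When peaks below the list's median fold were dropped, 19 zinc finger genes of chromosome 19 or 7.72% kept a peak, with a median fold of 8.22 and 100% of summits downstream, and the shares were 22.1% for zinc finger genes elsewhere and 10.1% for the other genes of chromosome 19. With a −log10 q of at least 10, the values were 19 genes, 7.72%, 8.22, 94.7%, 22.5% and 10.5%. The difference at like CpG number from the coding genes outside the group was -12.6 points with classes of 10 CpGs, -14.5 points at the median fold and -12.2 points at this q. The share over all coding genes was not recalculated at these thresholds. The other genes of chromosome 19 rose to 26.3% with promoters of 2000 bp on either side and to 27.9% with the starts of all transcripts. The order of the groups was the same in each of these. At the median fold, cluster 3 had 28.0% and cluster 4 had 0%. The difference at like CpG number turned from -14.4 to 1.40 percentage points when only the other genes of chromosome 19 were the comparison, which was added after seeing the data, and to -2.98 points when cluster 3 was also left out. Without cluster 3 the share was 18.1%. No paired analysis was possible because no condition had a second library. The depth, 6 to 24 fragments at a summit, limits what could be listed as a peak, and a promoter without a listed peak may still have gained methylation.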
